A study of Mus musculus with 6 samples.

Results

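The 10 genes described here encode the main parts of MHC class I antigen presentation. They were chosen by symbol, as the class I chains H2-K1, H2-D1 and B2m, the peptide transport and loading genes Tap1, Tap2 and Tapbp, the immunoproteasome subunits Psmb8, Psmb9 and Psmb10, and the transactivator Nlrc5. All 10 were found among the 46517 gene identifiers counted in primary cultured mouse renal tubule epithelial cells (RTECs), and all 10 passed the filter on low counts.

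MHC class I molecules show peptides from inside the cell to CD8+ T cells. The proteasome cuts cytosolic proteins into peptides, the TAP transporter carries them into the endoplasmic reticulum, and tapasin helps to load them onto a class I heavy chain that is paired with beta-2 microglobulin. Interferons raise the whole pathway, partly by exchanging the catalytic subunits of the proteasome for immunoproteasome subunits and partly through NLRC5, which acts at class I promoters. Kidney tubule cells carry class I on their surface and raise it during inflammation.

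RNA sequencing compared 3 untreated cultures, named CTL, with 3 that received the profibrotic cytokine TGF-β1 at 50 ng/ml for 24 h. All 6 cultures were grown from kidneys of FvB wild type mice, labelled as 4 to 6 weeks of age, and were kept in serum-free medium for 24 h. The study's methods give a slightly younger age and male mice. The labels do not say whether the cultures came from separate animals, so p-values measure only the spread between these cultures. Libraries held 28313080 to 34183497 reads on genes, and 3 counts, taken as the lower limit of what can be read, corresponded to 0.0878 to 0.106 CPM, in which each count is divided by all reads on genes in its library.

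2 properties of these cultures are given before the comparisons. The 4 Y-linked genes Ddx3y, Eif2s3y, Kdm5d and Uty summed to 154 CPM in CTL replicate 2 and 136 CPM in TGF-β1 replicate 2, against 0.0627 to 0.177 CPM in the other 4 libraries, so that those 4 libraries went against the description of the mice as male. Replicate 2 also had less Epcam, an epithelial adhesion gene, with 2004 and 1694 normalized counts against 5161 to 9116 in the other libraries. Pdgfrb, a pericyte and fibroblast receptor gene, was higher there, with 7195 and 3636 normalized counts against 1451 to 3215. Among other tubule genes, Cdh1, Krt8 and Krt18 were also lowest in replicate 2 of both groups. Pax8 and Lrp2 were instead highest in replicate 2 of CTL, with 6807 and 2350 normalized counts. In TGF-β1 both were lowest in replicate 2, with 3568 and 916. Same-numbered CTL and TGF-β1 cultures deviated together, and the counts of members and list genes are therefore also given with the replicate number as a block in the fit. The paper describes no pairing of these cultures, so the pairs are inferred from these same data.

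In these TGF-β1 cultures every class I member had a lower fitted level than in CTL, and 4 of the 10 fell past the threshold. These were Nlrc5, to 21.8% of its CTL level, Psmb9, to 42.9%, Tap2, to 82.4%, and B2m, to 84.9%. With the replicate number as a block, 9 of the 10 fell, all but Psmb10. No member rose in either fit. The test was edgeR's quasi-likelihood test with Benjamini-Hochberg adjustment over 15862 genes at a threshold of 0.05, and every adjusted p below comes from it unless another tool is named.

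Among all genes tested, 6.69% were lower and 5.00% higher with TGF-β1 in the fit on condition alone, and 19.1% were lower and 15.1% higher with the block. The median log2 fold change of the 10 members was −0.44, against −0.0028 over all genes tested. 6 members had every TGF-β1 culture below every CTL culture, an arrangement found in 18.0% of all genes tested. All 10 were lower in TGF-β1 in all 3 same-numbered pairs, as were 32.6% of all genes tested. In bulk cultures, fewer cells of a type and less RNA per cell cannot be told apart.

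**Figure D1:**
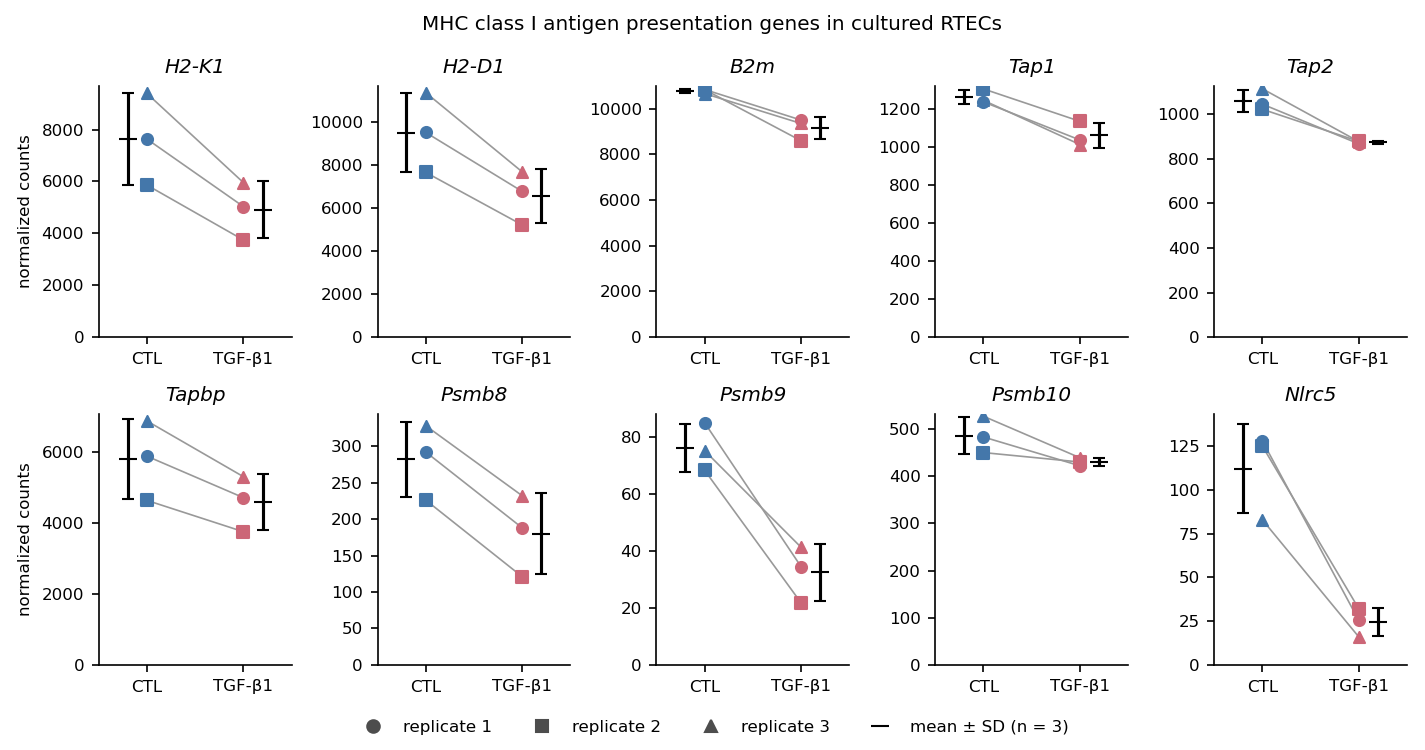
Normalized counts (vertical axes, each from 0) of the 10 class I members in CTL (blue) and TGF-β1 (red) cultures, with grey lines joining same-numbered cultures and black marks for the mean ± SD (n = 3 per group). Every line runs downward, and for H2-K1, H2-D1, Tapbp and Psmb8 the groups overlap although each pair falls.

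Nlrc5 encodes the class I transactivator, a protein that does not bind DNA itself and is held at class I promoters by RFX, CREB/ATF and NF-Y proteins. The gene lies at chr8:94434356-94527272 on the plus strand of GRCm38. Its normalized counts were 128, 125 and 82.9 in CTL replicates 1, 2 and 3, and 25.4, 32.1 and 16 in TGF-β1 replicates 1, 2 and 3. The lowest CTL culture was above the highest TGF-β1 culture, and both groups were lowest in replicate 3. The mean was 112 ± 25.4 in CTL and 24.5 ± 8.11 in TGF-β1 (SD, n = 3 per group).

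The fitted fall of Nlrc5 was 4.59-fold, with a log2 fold change of −2.20 (SE 0.31) and an edgeR adjusted p = 0.0113. Within pairs, the TGF-β1 culture held 19.8%, 25.7% and 19.3% of the CTL level. With the block the SE was 0.17 and the edgeR adjusted p = 7.55e-05. 144 of all genes tested had a lower log2 fold change. The values rest on few reads, 17 to 31 per TGF-β1 library and 76 to 133 per CTL library. Without CTL replicate 1 the edgeR adjusted p was 0.0601, and without TGF-β1 replicate 1 it was 0.0594, while the log2 fold change stayed between −2.45 and −1.96 over the 6 fits that left out 1 culture.

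H2-K1 and H2-D1 encode the classical class I heavy chains, which hold the peptide, and B2m encodes the light chain that both need to reach the cell surface. H2-K1 lies at chr17:33996017-34000347 on the minus strand, H2-D1 at chr17:35262730-35267499 on the plus strand, and B2m, outside the H2 region, at chr2:122147686-122153083 on the plus strand. The heavy chain genes are highly polymorphic, and FvB mice carry the q haplotype of the H2 region while the GRCm38 reference carries the b haplotype. How many FvB reads of H2-K1 and H2-D1 failed to align was not tested. Of all 50-base windows in their annotated transcripts, 9.63% for H2-K1 and 12.8% for H2-D1 also occur in another gene, and reads from these were left out by the authors' counting, so both counts are uncertain as levels. For B2m this share was 0%.

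The promoters of these chains are the place where NLRC5 and its partners act. A stretch of 30 bases is printed for each, because all 3 genes hold the same pair of short motifs at the same spacing, the X2 half-site TGACG followed by the Y box ATTGG. Capitals mark the 2 motifs, and the sequences are from RefSeq promoters on GRCm38.p6, 5′ to 3′ on the strand of the gene.
H2-K1, chr17:34000359-34000388, minus strand: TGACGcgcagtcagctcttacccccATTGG
H2-D1, chr17:35262993-35263022, plus strand: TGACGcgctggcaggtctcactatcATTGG
B2m, chr2:122147609-122147638, plus strand: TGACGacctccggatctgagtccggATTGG
The motif starts are 25 bases apart in all 3, and the bases between them differ among the 3 genes. Promoters were taken from RefSeq starts, while the gene positions above are from GENCODE, and the H2-D1 stretch lies inside those positions. In H2-K1 the X2 half-site began at −41 or −55 bases, depending on the RefSeq start.

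H2-K1 had 7637, 5863 and 9395 normalized counts in CTL replicates 1, 2 and 3, and 5036, 3748 and 5961 in TGF-β1 replicates 1, 2 and 3. The groups overlapped, since TGF-β1 replicate 3 was above CTL replicate 2, and replicate 2 was lowest in both groups. The TGF-β1 culture held 65.9%, 63.9% and 63.5% of the level in the same-numbered CTL culture. The fitted change was −0.63 on the log2 scale (SE 0.23, edgeR adjusted p = 0.132), and it did not pass the threshold. With the block the SE was 0.042 and the edgeR adjusted p = 3.22e-05.

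H2-D1 repeated this arrangement, with 9495, 7642 and 11342 normalized counts in CTL and 6761, 5207 and 7668 in TGF-β1 replicates 1, 2 and 3. Its groups overlapped only through TGF-β1 replicate 3, at 7668, and CTL replicate 2, at 7642. Within pairs, 71.2%, 68.1% and 67.6% of the CTL level was found. The log2 fold change was −0.54 (SE 0.19, edgeR adjusted p = 0.132), and with the block the SE was 0.043 and the edgeR adjusted p = 8.1e-05.

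B2m was close to even between CTL cultures, with 10837, 10833 and 10660 normalized counts, and read 9500, 8596 and 9351 in TGF-β1 replicates 1, 2 and 3. No culture of one group reached the other. The mean went from 10776 ± 101 to 9149 ± 484 (SD, n = 3 per group), a log2 fold change of −0.24 (SE 0.056, edgeR adjusted p = 0.0448). This call was narrow, since it was not made in any of the 6 fits that left out 1 culture, where the edgeR adjusted p lay between 0.0668 and 0.18. With the block the edgeR adjusted p was 0.00715.

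Tap1 and Tap2 encode the subunits of the peptide transporter, and Tapbp encodes tapasin, which bridges the transporter and the class I chain. All 3 lie in the H2 region, Tap1 at chr17:34187553-34197225, Tap2 at chr17:34203527-34216321 and Tapbp at chr17:33915899-33929292, each on the plus strand. The strand setting of the counting is not stated, so it is not known whether reads over exons shared with an antisense gene were counted or left out. Exons of Tap1 share 212 bp with Psmb9 on the opposite strand, Tap2 shares 698 bp with Gm15821 and Gm20496, and Tapbp shares 1053 bp with Gm19412 and Zbtb22.

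Tap2 had 1045, 1022 and 1114 normalized counts in CTL, and 867, 878 and 877 in TGF-β1 replicates 1, 2 and 3. The groups were clearly apart, and the TGF-β1 cultures lay within an SD of 5.96. Tap2 fell by 0.28 on the log2 scale (SE 0.055, edgeR adjusted p = 0.0287; 0.00584 with the block). In the 6 fits without 1 culture its edgeR adjusted p was 0.0514 to 0.121, and without both replicate 2 cultures it was 0.0344.

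Tap1 moved almost as much, from 1235, 1303 and 1243 normalized counts in CTL to 1035, 1133 and 1011 in TGF-β1 replicates 1, 2 and 3. No TGF-β1 culture reached the CTL range. The log2 fold change of −0.25 (SE 0.062) had an edgeR adjusted p = 0.0522, just outside the threshold, and 0.00652 with the block. When only library size was used for scaling, the edgeR adjusted p was 0.0199.

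Tapbp behaved like the heavy chains, with 5875, 4630 and 6866 normalized counts in CTL and 4708, 3749 and 5299 in TGF-β1 replicates 1, 2 and 3. The groups overlapped, and replicate 2 was lowest in both. The TGF-β1 culture held 80.1%, 81% and 77.2% of the level in the same-numbered CTL culture. The log2 fold change of −0.34 (SE 0.18) had an edgeR adjusted p = 0.285 without the block and, at −0.33 (SE 0.042), 0.000662 with it.

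**Figure D2:**
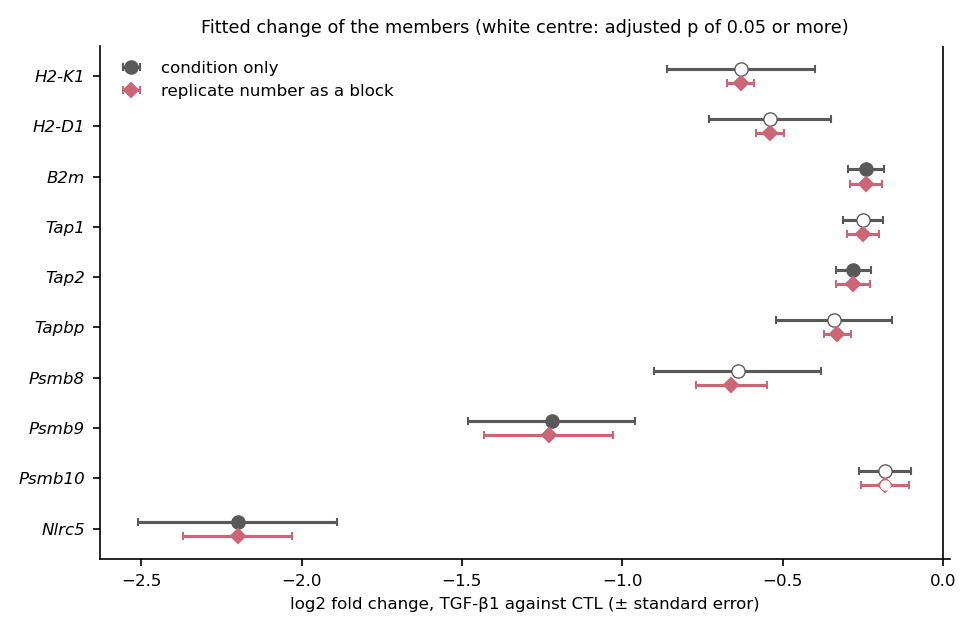
Log2 fold change of each class I member, TGF-β1 against CTL, with its standard error as a bar, from the edgeR fit on condition alone (grey circles) and with the replicate number as a block (red diamonds). A white centre marks an adjusted p of 0.05 or more. All 20 estimates lie below 0, the 2 fits give nearly the same positions, and the error bars of H2-K1, H2-D1 and Tapbp are much shorter with the block.

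Psmb8, Psmb9 and Psmb10 encode the inducible catalytic subunits that replace Psmb5, Psmb6 and Psmb7 in the immunoproteasome, which favours peptides with ends that class I chains can hold. Psmb9 lies at chr17:34181987-34187764 on the minus strand, head to head with Tap1, with 225 bases between their RefSeq starts. Psmb8 lies beside them at chr17:34197721-34201454 on the plus strand, where 498 bp of its exons overlap Gm20496 on the opposite strand. Psmb10 lies at chr8:105935735-105938444 on the minus strand and overlaps no other exon.

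Psmb9 had 85, 68.3 and 75.2 normalized counts in CTL, and 34.5, 21.8 and 41.3 in TGF-β1 replicates 1, 2 and 3. The groups did not overlap, and replicate 2 was lowest in both. Psmb9 fell by 1.22 on the log2 scale (SE 0.26, edgeR adjusted p = 0.0333; 0.00221 with the block). The call was made in 2 of the 6 fits without 1 culture, in which the edgeR adjusted p ranged from 0.0447 to 0.139.

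Psmb8 had 292, 226 and 328 normalized counts in CTL, and 188, 121 and 232 in TGF-β1 replicates 1, 2 and 3. TGF-β1 replicate 3 was just above CTL replicate 2, so the groups overlapped. The log2 fold change was −0.64 (SE 0.26, edgeR adjusted p = 0.17), and −0.66 (SE 0.11, edgeR adjusted p = 0.00233) with the block.

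Psmb10 changed least, with 483, 450 and 527 normalized counts in CTL against 422, 430 and 439 in TGF-β1 replicates 1, 2 and 3. The groups did not overlap, but the pair of replicate 2 differed by only 0.066 on the log2 scale in size. The log2 fold change of −0.18 (SE 0.081) did not pass the threshold in either fit (edgeR adjusted p = 0.215, and 0.107 with the block).

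The constitutive partners of these subunits did not fall. Psmb5, which encodes the chymotrypsin-like subunit, had 1479 to 1604 normalized counts in CTL and 1725 to 2018 in TGF-β1, a log2 fold change of 0.28 (SE 0.072, edgeR adjusted p = 0.0575; 0.012 with the block). For Psmb6 the log2 fold change was 0.10 (edgeR adjusted p = 0.292), and for Psmb7 it was 0.17 (edgeR adjusted p = 0.108; 0.018 with the block). All 3 had every TGF-β1 culture above every CTL culture, an arrangement whose share among all genes tested was not counted.

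Counts of each immunoproteasome subunit were then set against its partner within each culture, a ratio that does not depend on library size. Psmb8 reads per 100 Psmb5 reads went from 18.2 in CTL to 9.39 in TGF-β1, as geometric means, with ranges of 14.9 to 20.5 and 6.01 to 13.4. Psmb9 reads per 100 Psmb6 reads went from 2.1 to 0.811, with ranges of 1.9 to 2.34 and 0.524 to 1.13. Psmb10 reads per 100 Psmb7 reads went from 15.4 to 12.2, with ranges of 14.7 to 15.8 and 12 to 12.5.

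None of the 3 ratios overlapped between groups, and all 3 were lower in TGF-β1 in every same-numbered pair. On the log2 scale the differences were −0.95 for Psmb8 to Psmb5 (−2.46 ± 0.25 in CTL and −3.41 ± 0.59 in TGF-β1, SD, n = 3), −1.37 for Psmb9 to Psmb6 and −0.34 for Psmb10 to Psmb7. Each gave p = 0.1 in a two-sided exact permutation test, which is the smallest p that 3 cultures against 3 allow, and 0.1 after adjustment over the 3 ratios. This test therefore could not place any of them below 0.05.

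**Figure D3:**
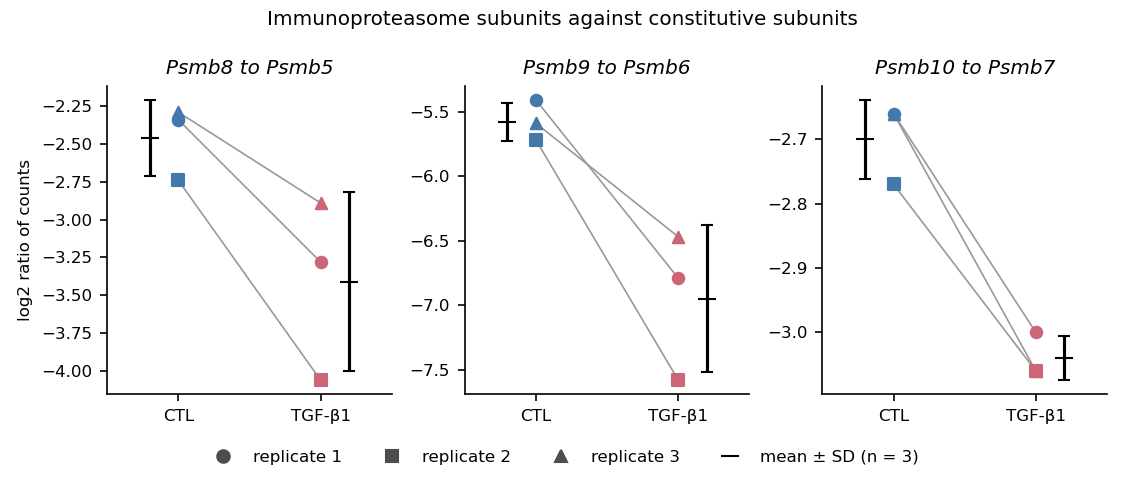
Log2 ratio of the counts of each immunoproteasome subunit to those of the constitutive subunit it replaces (vertical axes, which do not start at 0) in CTL (blue) and TGF-β1 (red) cultures, with lines joining same-numbered cultures and black marks for the mean ± SD (n = 3 per group). In each of the 3 panels all TGF-β1 cultures lie below all CTL cultures, with the widest spread for Psmb8 and Psmb9 in TGF-β1.

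As levels per length, in CPM per kb of exon, the members covered a wide range in CTL. B2m was highest at 406 ± 3.94 (SD, n = 3), followed by H2-D1 at 119 ± 23.4, H2-K1 at 84.1 ± 19.6 and Tapbp at 51.7 ± 10.1. Psmb10 at 9.24 ± 0.746, Tap2 at 9.08 ± 0.423 and Tap1 at 7.45 ± 0.194 came next, then Psmb8 at 2.7 ± 0.502, Psmb9 at 0.674 ± 0.0766 and Nlrc5 at 0.427 ± 0.0967. The mean ± SD ranges of H2-D1 and H2-K1 overlapped, as did those of Psmb10 and Tap2. Within each culture, however, H2-D1 was above H2-K1. In TGF-β1 the order was the same from B2m, at 327 ± 21.3 CPM per kb, to Nlrc5, at 0.0884 ± 0.0282.

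Longer promoter stretches are printed for H2-K1 and B2m, since these hold motifs for several factors named above. The motifs searched on both strands were the IRF core AANNGAAA, the interferon gamma-activated site (GAS) TTCNNNGAA, the NF-kB motif GGGANNNCC, the X2 half-site TGACG and the Y box ATTGG. Capitals mark matches on either strand within 150 to 11 bases before the start of the gene.
H2-K1, chr17:34000358-34000497, minus strand: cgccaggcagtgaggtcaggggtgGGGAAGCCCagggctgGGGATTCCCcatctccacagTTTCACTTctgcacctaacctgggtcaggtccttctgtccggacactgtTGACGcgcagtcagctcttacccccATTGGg
B2m, chr2:122147537-122147676, plus strand: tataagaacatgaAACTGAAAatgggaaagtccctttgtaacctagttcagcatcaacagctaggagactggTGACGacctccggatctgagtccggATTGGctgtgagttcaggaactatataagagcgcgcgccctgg
In H2-K1 the capitals are, from the 5′ end, 2 NF-kB motifs, the IRF core on the opposite strand, the X2 half-site and the Y box, and in B2m they are the IRF core, the X2 half-site and the Y box. The second NF-kB match of H2-K1 reads as a match on both strands at the same place, and no other marked matches overlap.

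RefSeq promoter windows, from 250 bases before to 50 bases after the start, were at hand for 8 of the 10 members, without Tap2 and Nlrc5, and for 27025 genes in all. The shares that follow are of all genes with a window. The IRF core was found in H2-K1, H2-D1 and B2m, and in 26.7% of genes. NF-kB motifs were found in H2-K1 and H2-D1 and in 20.7% of genes, and the GAS in Psmb8 and in 9.55% of genes. The X2 half-site was found in 5 members, H2-K1, H2-D1, B2m, Tap1 and Psmb9, and in 23% of genes. The Y box was found in these 5 and Tapbp, and in 41.1% of genes.

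The X2 half-site and Y box with starts 25 bases apart on 1 strand, a spacing read from H2-K1, were found in 27 genes, 0.0999% of those with a window. H2-K1, H2-D1 and B2m were among them, and so was the non-classical chain gene H2-M3. Of these 27 genes 21 were tested for expression, and 1 was higher (Trim26, log2 fold change 0.29, edgeR adjusted p = 0.0162) and 2 were lower (B2m and H2-M3). With the block, 4 were higher and 4 lower. Their median log2 fold change was −0.023. A match in these letters is a description and not a binding site.

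**Figure D4:**
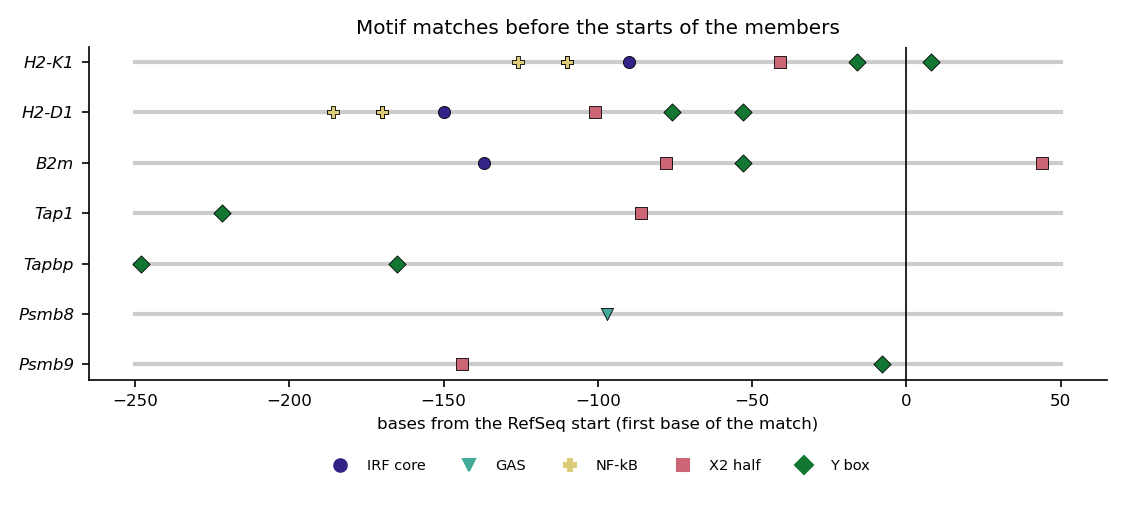
Position of each motif match (symbols) in the RefSeq promoter windows (grey lines) of the 7 members with at least 1 match, with the distance of the first matching base from the start on the horizontal axis. The X2 half-site (red squares) and the Y box (green diamonds) stand 25 bases apart in H2-K1, H2-D1 and B2m, and the window of Psmb10, which held no match, is not drawn.

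Other class I heavy chains were examined next. Of the 16 listed non-classical chains of the H2 region, 12 were tested, 1 fell and none rose, with a median log2 fold change of −0.49. The one that fell was H2-M3, which presents formylated peptides and shares the X2 and Y pair. It had 205, 201 and 195 normalized counts in CTL and 121, 117 and 134 in TGF-β1 replicates 1, 2 and 3, which did not overlap (log2 fold change −0.69, SE 0.11, edgeR adjusted p = 0.0144). With the block 4 fell and 1, H2-T24, was higher. Some of these genes share much of their sequence. Of the 50-base windows, 53.5% for H2-T22 and 36.4% for H2-Q4 also occur in another gene, so counts of such genes are uncertain. For H2-M3 this share was 0.576% and for H2-T24 it was 3.17%.

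Of 7 class I-like chains outside the H2 region, 5 were tested, and 1 rose and 1 fell, or 1 and 2 with the block. Cd1d1, whose product presents lipids to NKT cells, rose from 290, 273 and 294 normalized counts in CTL to 437, 427 and 450 in TGF-β1 replicates 1, 2 and 3. Its groups were far apart (log2 fold change 0.62, SE 0.075, edgeR adjusted p = 0.00809). Hfe, which regulates iron uptake, fell from 85, 114 and 92.7 to 44.7, 32.1 and 61 normalized counts (log2 fold change −1.08, SE 0.26, edgeR adjusted p = 0.049). Both proteins need beta-2 microglobulin as their light chain.

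Peptide trimming enzymes and chaperones were all tested, and 1 of 10 rose and none fell. Tpp2, a cytosolic peptidase, rose from 3885 to 4052 normalized counts in CTL to 4738 to 5072 in TGF-β1 (log2 fold change 0.33, SE 0.047, edgeR adjusted p = 0.0122). With the block 3 rose and 3 fell. Those lower with the block were Erap1, which trims peptides in the endoplasmic reticulum (log2 fold change −0.41, edgeR adjusted p = 0.00062), Tapbpl and Lnpep.

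The other core subunits of the proteasome were above 0 in log2 fold change with TMM scaling. Of 11 further core subunits 3 rose, Psma1, Psma3 and Psmb3, by 0.22, 0.24 and 0.24 on the log2 scale (edgeR adjusted p = 0.0398, 0.0485 and 0.0419), and none fell. With the block 9 rose, and the median log2 fold change of the 11 was 0.18. When only library size was used for scaling, 10 of 11 were above 0 and none passed the threshold. Among 9 activator and assembly genes 5 were below 0, the median log2 fold change was −0.02 and 1 passed. Psme4, that gene, rose by 0.24 on the log2 scale (edgeR adjusted p = 0.0225), a call that was not made with library size alone. With the block 1 was higher and 1 lower. The lower one was Psme1, which encodes an interferon-induced activator subunit (log2 fold change −0.16, edgeR adjusted p = 0.346; 0.0399 with the block), while its partner subunit Psme2 had a log2 fold change of −0.02 (edgeR adjusted p = 0.925; 0.894 with the block).

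Of 8 partners of NLRC5 at class I promoters, 1 rose and 1 fell, and with the block 2 rose and 1 fell. Rfxank rose from 360, 402 and 359 normalized counts in CTL to 599, 623 and 478 in TGF-β1 replicates 1, 2 and 3 (log2 fold change 0.60, SE 0.12, edgeR adjusted p = 0.0292). Rfx5 fell from 789, 725 and 849 to 544, 548 and 646 normalized counts (log2 fold change −0.44, SE 0.10, edgeR adjusted p = 0.039). Both encode subunits of the RFX complex, which binds the X box, and neither gene overlapped between groups. Each of these 2 calls was made in only 1 of the 6 fits that left out 1 culture.

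Of 23 interferon and NF-kB signalling genes 21 were tested, 3 fell and none rose, with a median log2 fold change of −0.16. Irf7, a regulator of interferon genes, fell by 1.01 on the log2 scale (edgeR adjusted p = 0.0273), Irf9, part of the complex that answers type I interferon, by 0.42 (edgeR adjusted p = 0.0296), and Socs3, a feedback inhibitor, by 0.88 (edgeR adjusted p = 0.0184). With the block 9 fell and 1 rose. Irf1, an activator of class I genes, had a log2 fold change of 0.11 (edgeR adjusted p = 0.682). Ifng had 0 counts in every library and Ifnb1 at most 1, so that both were under the limit of 3 counts.

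Interferon-induced GTPases, which act against intracellular pathogens, were tested as genes known to be induced by interferon gamma. Of 12 listed genes 10 were tested, 6 fell, 8 fell with the block and none rose in either fit, with a median log2 fold change of −0.99. Irgm1, which had the most counts in this list, was the only tested gene above 0. It had 6533, 6512 and 6948 normalized counts in CTL and 7108, 8260 and 7169 in TGF-β1 replicates 1, 2 and 3. Its groups did not overlap (log2 fold change 0.17, edgeR adjusted p = 0.182, and 0.0651 with the block). Gbp9 went from 491, 456 and 680 normalized counts in CTL to 145, 99.4 and 226 in TGF-β1 replicates 1, 2 and 3 (log2 fold change −1.78, SE 0.32, edgeR adjusted p = 0.0239). Gbp2 went from 435, 494 and 411 to 246, 226 and 280 normalized counts (log2 fold change −0.83, SE 0.12, edgeR adjusted p = 0.0117). Gbp3, Gbp7, Iigp1 and Tgtp1 also fell, with log2 fold changes of −1.14, −0.46, −2.94 and −1.52, and Iigp1 was near the limit of 3 counts in TGF-β1.

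MHC class II genes, which present peptides to CD4+ T cells, were listed for contrast. Of 9 listed genes 6 were tested and none passed the threshold in the fit on condition. With the block, H2-Ab1 was higher (log2 fold change 0.85, edgeR adjusted p = 0.000136) and Cd74, which encodes the invariant chain, was lower (−0.58, edgeR adjusted p = 0.0162). H2-Ab1 had 391, 287 and 608 normalized counts in CTL and 786, 516 and 1002 in TGF-β1 replicates 1, 2 and 3, higher in each pair with overlapping groups. Ciita, the class II counterpart of Nlrc5, was under 10 normalized counts in every culture and was not tested. Of 11 listed ligands of T and NK cell receptors 6 were tested and none passed, and with the block Cd80 was higher and H60b, Icosl and Cd47 were lower.

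**Figure D5:**
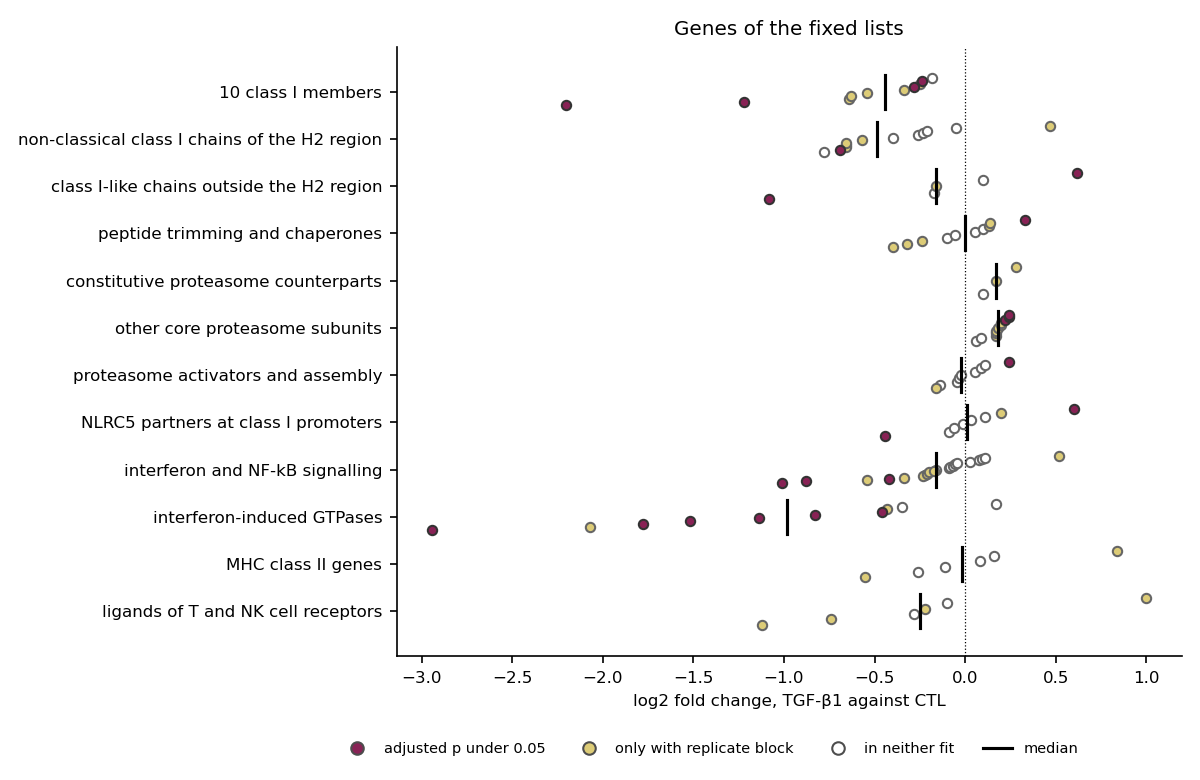
Log2 fold change, TGF-β1 against CTL, of every tested gene (points) in the 10 class I members and in 11 lists of related genes, with the list median as a black line. Dark points passed the threshold of edgeR's adjusted p in the fit on condition, yellow points only with the replicate block, and white points in neither. The members, the non-classical chains and the GTPases lie mostly left of 0, and the core proteasome subunits lie right of 0.

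The members were not all alike in how they varied between cultures. H2-K1, H2-D1, Tapbp, Psmb8 and Psmb9, 5 of the 10, were lowest in replicate 2 of both groups, while Nlrc5 was lowest in replicate 3 of both. In CTL, H2-K1 of replicate 2 was 0.35 below the group mean on the log2 scale, and B2m differed by at most 0.016 in size between any CTL culture and the mean. Without both cultures of replicate 2, 6 members were lower in the fit on condition and 9 with the block. With the block but without replicate 1, 6 were lower, and B2m, Tap1 and Tap2 had edgeR adjusted p = 0.0734, 0.085 and 0.0697. With the block but without replicate 3, 9 were lower.

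The mean of the 10 members, each standardised on log2 normalized counts across the 6 cultures, was 0.80, 0.35 and 1.12 in CTL and −0.68, −1.14 and −0.46 in TGF-β1 replicates 1, 2 and 3. The genes outside the members with the most similar pattern were Llgl2, Trip6, Opa3, Eda, Nectin2, Dcdc2a, Gprc5a, Samd12, Ntn1 and Nucb1, with Pearson's r of 0.994 or more over the 6 cultures. This is a description of 6 points that share libraries and condition, and 792 of 10902 genes with a mean of at least 5 CPM had r of 0.9 or more.

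Markers of the tubule and of other cells were measured beside these results. Of 16 tubule markers 13 were tested and 4 fell, Cdh16, Pax8, Lrp2 and Aqp1, or 9 with the block, and the summed level was 1379 to 3006 CPM in CTL and 1043 to 2377 CPM in TGF-β1. Among proximal tubule genes, Lrp2 had 916 to 2350, Aqp1 31.1 to 500, Cubn 131 to 168 and Slc34a1 at most 10.9 normalized counts. The distal tubule gene Slc12a3 was at most 8.45 and the collecting duct gene Aqp2 at most 5.45 normalized counts. Leukocyte markers, 10 of 14 tested, summed to 11.1 to 24.8 CPM in CTL and 8.13 to 22.5 CPM in TGF-β1. In all libraries Cd3e, a defining T cell gene, was at most 1.09 normalized counts. Of these Csf1r, a macrophage receptor gene, fell by 1.32 on the log2 scale (edgeR adjusted p = 0.0238), and it was the 1 leukocyte marker that passed in either fit. The median log2 fold change of the 10 was 0.12, and 4 were below 0. The myeloid genes Adgre1, Itgam, Fcer1g, Tyrobp and Laptm5 had values of 0.11 to 0.28, and Cd53 had 0.19. Lyz2, a further myeloid gene with means of 271 normalized counts in CTL and 237 in TGF-β1, had −0.19. Ptprc had −0.66 and Coro1a −0.16.

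Endothelial markers, 5 of 10 tested with none past the threshold on condition and 2 lower with the block (Flt1 and Esam), summed to 41.1 to 58.3 CPM in CTL and 25.2 to 37.1 CPM in TGF-β1, without overlap. Most of the sum was Flt1, and the defining genes Pecam1 and Cdh5 were at most 16.6 normalized counts. Of the fibroblast and pericyte markers 9 of 10 were tested and none passed on condition, while with the block Cspg4, Col1a1 and Col1a2 were higher and Pdgfrb and Dcn lower. They summed to 1118 to 2696 CPM in CTL and 1136 to 3357 CPM in TGF-β1, each group highest in replicate 2. The part of these other cells in the class I values was not tested.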

How the data were processed

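Read counts per gene from 3 CTL and 3 TGF-β1 cultures were analysed. The deposited counts are whole reads with no normalization, which the authors made by trimming single-end reads with Trim Galore, aligning them to GRCm38 with STAR 2.4.1d and counting with HTSeq 0.6.1, per the labels and the paper. Of all reads, 18.7 to 19.4% were not unique, 1.88 to 1.97% ambiguous and 4.16 to 4.93% on no gene, and these were left out. The annotation release and strand setting are not given in the sources used here.

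Symbols, positions and exon lengths came from GENCODE M21, which matched 46005 of 46517 identifiers. 1 listed symbol, Nrdc, was found through a RefSeq synonym. Counts were tested in R 4.3.3 with edgeR 4.0.16 (filterByExpr by condition, TMM, glmQLFit with robust estimation, glmQLFTest, two-sided), and Benjamini-Hochberg adjustment ran over 15862 genes. Normalized counts are counts scaled by TMM to the geometric mean library size. CPM are counts scaled by library total. The floor of 3 counts covers counting error only. Alternatives used DESeq2 1.42.0, limma-voom 3.58.1, other scalings, filters and thresholds, down-sampling, the replicate block and left-out cultures. Fits with the block that left out replicate 1 or 3 were chosen after seeing the data.

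Replicate numbers come from the labels. Deviations from group means correlated at 0.34, 0.684 and 0.572 for same-numbered cultures, and at −0.617 to 0.215 for others, over 15862 genes, and the numbers were taken as pairs. On simulated counts with 200 of 15862 genes changed by 1 (log2), TGF-β1 against CTL, edgeR recovered 65.5% with 9.03% of calls false, and 61% with 12.2% false with the block. DESeq2 recovered 77.5% with 27.9% false, and limma-voom 63.5% with 5.93%. These counts held no effect of replicate number.

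The members and lists were chosen with earlier results of these data known. All members were named, and list genes were named if past the threshold or if the members are measured against them (Psmb5, Psmb6, Psmb7, Irf1, Rfx5, Ciita). Some listed genes are not reported here. Psme1, Psme2, Irgm1, cell type markers and genes past the threshold with the block alone were singled out after their values were seen, as was the motif spacing. The 10 genes most like the members were those with the highest Pearson's r. Figures were drawn with matplotlib 3.10.9.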

Additional observations from a re-analysis of the deposited data

How the results depend on the processing

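All 10 members kept a negative log2 fold change in every alternative run, and no member was called higher in any. Where 4 members were lower in the fit on condition, 7 were lower with DESeq2 (H2-K1, H2-D1 and Tap1 in addition), 0 at an adjusted p of 0.01, and 0 to 3 when 1 culture was left out, the lowest count being reached without replicate 1 of CTL and also without replicate 1 of TGF-β1. Omitting a whole pair gave 0 to 6, and 0 without replicate 1, where edgeR made no call among 15961 genes and 1938 had an unadjusted p under 0.05. Over the other scalings, filters, limma-voom and down-sampling the count was 3 to 5. B2m was not called with no filter beyond 1 count (edgeR adjusted p = 0.0553).

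With the replicate number as a block, 9 members were lower, and 9 also without replicate 2 and without replicate 3. Among the genes of the 11 related-gene lists, cell type markers not included, 7 were higher and 12 lower on condition alone, and 22 were higher and 32 lower with the block. Many of these calls on condition were narrow. Over the 6 fits that left out 1 culture, Psma3 and Psmb3 were called in 0. Psma1, Rfx5, Rfxank, Hfe, Irf7, Irf9, Gbp3, Gbp7 and Tgtp1 were called in 1. Psme4 was called in 2, Gbp9 in 3, H2-M3, Cd1d1, Tpp2, Socs3 and Gbp2 in 4, and Iigp1 in 6. The ratios of immunoproteasome to constitutive subunits kept their direction in each alternative run, and 3 pairs cannot go below p = 0.25 in an exact sign-flip test. Scaling by library size alone moved the median log2 fold change of all genes to −0.077. The members with the fewest reads, and so the least precise by depth, were Nlrc5 and Psmb9.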
